A study of Homo sapiens with 38 samples.

Results

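In stimulated Jurkat cells, 3850 regions of the genome were bound by both GATA3 and BHLHE40, carried acetylation of lysine 27 of histone H3 (H3K27ac), and lay at the end of a gene. A member was a line of the authors' GATA3 peak list that overlapped, by at least 1 bp, a line of the BHLHE40 list and a line of the H3K27ac list, and whose GATA3 summit lay within 1 kb of either end of a RefSeq gene record on GRCh38. These were 13.3% of the 29009 GATA3 regions and 35.2% (95% Wilson interval 34.3 to 36.1) of the 10927 GATA3 regions shared with BHLHE40 and H3K27ac. The other 7077 shared acetylated regions are called distal here. A further 5154 BHLHE40 regions lay at gene ends with H3K27ac and without an overlapping GATA3 region, and these are called BHLHE40-only. Members were chosen by peak overlap in these 3 lists and by summit position, so the number and the position of the members are a description.

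GATA3 is a zinc-finger transcription factor that binds DNA through a core of the letters GATA and directs T-cell development and the type 2 helper programme. BHLHE40 is a basic helix-loop-helix factor that binds E-boxes, mostly as a repressor, and takes part in the circadian clock and in the response of T cells to activation. H3K27ac marks active promoters and enhancers. At an active promoter the nucleosomes on either side of the start of transcription carry the mark, while the start itself is depleted of nucleosomes.

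The series holds ChIP-seq of Jurkat cells, a line derived from a T-cell acute lymphoblastic leukaemia, in 38 samples that form 19 groups of 2. The 3 groups used here carried a control lentivirus (Ctrl_LV) and were stimulated with phorbol myristate acetate (PMA, 50 ng/ml) and ionomycin (500 ng/ml), which bypass the T-cell receptor, and they differed only in the antibody: GATA3, BHLHE40 or H3K27ac. The labels give 5 hours of stimulation for each sample, and the treatment protocol gives 2 hours. Each list stands for both samples of a group, so there is no value per sample and no spread between replicates. No difference below was therefore tested, and no comparison with resting cells was made. A single leukaemia line limits these groups as a model of T cells, and the labels do not say whether the paired samples came from separate cultures. Intervals on shares cover counting error only. The depth of the samples is unknown.

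The factor lists held 29009 GATA3 and 26205 BHLHE40 lines, and the H3K27ac list 113570. Of 10 genes that mark T cells, 5 had a member at an end (CD2, CD247, CD3D, CD3E and ZAP70). Another 2 had a BHLHE40-only region (CD7 and LAT), and CD3G, CD5 and LCK had neither. No member lay at any of 12 B-cell, 12 myeloid or 14 neuronal marker genes (upper Wilson limits 24.2, 24.2 and 21.5%). Erythroid and megakaryocyte genes had 2 of 14 (GFI1B and ITGA2B, 14.3%, 4.01 to 39.9) and hepatocyte genes had 1 of 14 (TF, transferrin, 7.14%, 1.27 to 31.5). The share over all protein-coding genes was 18.1%, which each of these intervals includes. The counts of the other cell types therefore do not set those lists apart from the background.

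The sequences just upstream of the gene start are shown first for the members with the highest GATA3 signal value, the authors' measure of enrichment per peak, among those whose GATA3 and BHLHE40 summits both fell in the promoter window of RefSeq. That window runs from 250 bases before to 50 bases after a start, and the 250 upstream bases are printed from RefSeq GRCh38.p14, 5′ to 3′ on the strand of the gene, so that the last base adjoins the start. Capitals mark the GATA core on either strand (GATA or TATC). LOC105370399, an lncRNA whose GATA3 summit lay 4419 bp beyond the TRAC gene of the T-cell receptor alpha constant region, is at chr14:22556316-22556565 on the plus strand. HTR5A, a serotonin receptor gene, is at chr7:155070074-155070323 on the plus strand, and SDE2, a gene for a protein of DNA replication and splicing, at chr1:225999344-225999593 on the minus strand. LOC124901407, an lncRNA inside the AHI1 record, is at chr6:135323134-135323383 on the plus strand. LOC101929698, an lncRNA inside the NOL4L record, is at chr20:32509709-32509958 on the plus strand.
LOC105370399: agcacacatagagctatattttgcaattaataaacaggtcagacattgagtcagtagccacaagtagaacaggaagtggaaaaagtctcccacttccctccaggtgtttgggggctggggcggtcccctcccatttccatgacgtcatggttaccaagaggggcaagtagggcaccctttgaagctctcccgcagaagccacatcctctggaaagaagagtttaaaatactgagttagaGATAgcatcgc
HTR5A: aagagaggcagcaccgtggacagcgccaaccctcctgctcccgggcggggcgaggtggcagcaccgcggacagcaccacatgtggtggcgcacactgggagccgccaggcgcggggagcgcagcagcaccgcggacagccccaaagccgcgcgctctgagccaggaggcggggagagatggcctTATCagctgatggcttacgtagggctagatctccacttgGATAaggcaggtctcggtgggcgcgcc
SDE2: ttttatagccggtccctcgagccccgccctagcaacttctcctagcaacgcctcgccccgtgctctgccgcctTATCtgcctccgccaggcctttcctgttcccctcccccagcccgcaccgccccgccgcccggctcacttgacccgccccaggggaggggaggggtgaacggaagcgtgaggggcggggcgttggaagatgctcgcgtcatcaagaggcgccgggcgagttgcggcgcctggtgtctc
LOC124901407: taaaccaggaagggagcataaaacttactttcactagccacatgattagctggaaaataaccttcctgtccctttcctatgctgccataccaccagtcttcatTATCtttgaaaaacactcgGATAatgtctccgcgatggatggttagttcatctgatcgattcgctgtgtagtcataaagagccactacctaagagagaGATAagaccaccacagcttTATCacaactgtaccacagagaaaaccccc
LOC101929698: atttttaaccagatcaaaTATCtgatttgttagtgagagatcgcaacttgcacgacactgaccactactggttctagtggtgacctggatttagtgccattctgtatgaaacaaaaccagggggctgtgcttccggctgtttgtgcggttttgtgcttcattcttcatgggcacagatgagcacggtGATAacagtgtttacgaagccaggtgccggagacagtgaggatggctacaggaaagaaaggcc
Each of these 5 stretches held a GATA core, and the GATA3 summit lay 6, 10, 16, 7 and 27 bp from the nearest one, in the order printed. Their GATA3 signal values were 242, 239, 204, 201 and 144.

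By BHLHE40 signal value, LOC124901407 (226), LOC105370399 (195) and SDE2 (169), printed above, were also the highest under the same condition. The next 3 members by BHLHE40 signal value follow. MTF2, a Polycomb cofactor gene, is at chr1:93079033-93079282 on the plus strand. CLTC, the clathrin heavy chain gene, is at chr17:59619645-59619894 on the plus strand. LOC105378040, an lncRNA, is at chr6:146771154-146771403 on the minus strand. Capitals again mark the GATA core.
MTF2: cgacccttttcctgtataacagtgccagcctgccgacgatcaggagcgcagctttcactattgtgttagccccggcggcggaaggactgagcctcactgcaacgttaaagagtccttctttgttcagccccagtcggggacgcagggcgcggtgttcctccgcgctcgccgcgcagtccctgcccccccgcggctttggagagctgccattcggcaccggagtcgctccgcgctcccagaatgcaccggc
CLTC: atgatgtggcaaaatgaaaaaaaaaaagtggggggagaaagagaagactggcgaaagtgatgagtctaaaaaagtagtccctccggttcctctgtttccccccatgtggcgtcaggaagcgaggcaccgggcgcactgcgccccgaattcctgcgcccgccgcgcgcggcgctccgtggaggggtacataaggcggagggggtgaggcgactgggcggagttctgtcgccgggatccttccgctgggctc
LOC105378040: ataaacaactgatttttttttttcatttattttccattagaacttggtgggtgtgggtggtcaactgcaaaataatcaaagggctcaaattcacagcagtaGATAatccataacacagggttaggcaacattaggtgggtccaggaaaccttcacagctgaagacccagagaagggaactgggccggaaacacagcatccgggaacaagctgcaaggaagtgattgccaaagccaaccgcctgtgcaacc
BHLHE40 signal values were 95.7, 78.5 and 78.3 and GATA3 signal values 22.7, 13.98 and 73.8. No GATA core was present in the MTF2 and CLTC stretches, and the LOC105378040 stretch held 1, which lay 137 bp from the GATA3 summit. None of the 8 stretches printed so far contained CACGTG, the palindromic E-box.

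Genes of the cytosolic ribosome are shown as another kind of promoter, chosen after their values were seen. RPS6 is at chr9:19380237-19380486 on the minus strand and RPLP1 at chr15:69452568-69452817 on the plus strand, and both encode ribosomal proteins.
RPS6: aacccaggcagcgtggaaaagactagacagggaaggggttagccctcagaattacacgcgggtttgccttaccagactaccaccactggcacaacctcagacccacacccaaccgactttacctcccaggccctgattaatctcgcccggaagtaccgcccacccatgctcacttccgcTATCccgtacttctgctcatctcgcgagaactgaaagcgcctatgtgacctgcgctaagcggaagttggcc
RPLP1: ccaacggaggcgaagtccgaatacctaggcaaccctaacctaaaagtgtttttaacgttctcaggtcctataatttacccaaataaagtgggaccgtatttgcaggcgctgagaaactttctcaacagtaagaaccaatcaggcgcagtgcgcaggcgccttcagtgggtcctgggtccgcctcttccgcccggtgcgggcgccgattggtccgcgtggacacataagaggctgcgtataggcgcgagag
The GATA3 signal value was 34.4 at RPS6 and 27.4 at RPLP1, and the GATA3 summits lay 34 and 39 bp after the start, beyond the printed bases. RPS6 held 1 GATA core 103 bp from the summit, and RPLP1 held none.

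Most members lay nearest a protein-coding gene, and most members with a known strand lay nearest a gene start. The nearest record was protein-coding for 2821 members (73.3%, 71.9 to 74.6) and an lncRNA for 721 (18.7%, 17.5 to 20.0), followed by 93 pseudogenes, 67 tRNA genes, 40 miRNA genes, 21 snRNA genes and 21 antigen-receptor V segments. The median distance from the GATA3 summit to the gene end was 147 bp. Within 100 bp of the end lay 37.5% of members, and 18.4% lay beyond 500 bp. The strand of the nearest gene was given for 2948 members. For 2683 of them (91.0%, 89.9 to 92.0) the nearest end was the start of the gene, and for 265 (8.99%) the other end. Starts of genes on opposite strands lay within 1 kb of 895 members (23.2%, 21.9 to 24.6), and for 429 both genes were protein-coding. Of the 2824 members with any known start within 1 kb, these 895 were 31.7%. The summit lay inside a gene record at 2777 members (72.1%). At the 1 kb limit, the summits at LOC124905215 and KMT5C lay 998 bp from the end, with GATA3 signal values of 11.8 and 28.2. The nearest regions left out lay 1001 bp from GANAB and DMTF1-AS1, with 8.19 and 12.3.

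Seen from the genes, 3627 of 20050 protein-coding records had a member at an end, a share of 18.1% that serves as the background for every gene list. A member needs BHLHE40 and H3K27ac, while this background counts all protein-coding records, with or without them. The part of this in the shares of the gene lists was not tested. A BHLHE40-only region without a member lay at the ends of 4746 protein-coding records (23.7%). Over all 59716 records the share with a member was 8.69%. It was 6.10% for lncRNA, 3.55% for miRNA, 3.92% for snoRNA, 21.1% for tRNA and 0.757% for pseudogene records. The tRNA genes carry the anticodon molecules of translation and stand in clusters, so that 1 region can serve several records: 98 of 465 records had a member, while 67 members had a tRNA gene as their nearest.

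The GATA3 signal at gene ends was weaker than at distal regions, while H3K27ac was stronger and BHLHE40 similar. The median GATA3 signal value was 9.32 (quartiles 7.02 and 15.2) over the members and 16.9 (9.38 and 34.02) over the distal regions, beside 11.2 over all GATA3 regions. The members ran from 1.33 to 259, so the classes overlapped over nearly their whole range. A value above 50 was reached by 157 members (4.08%) and 1014 distal regions (14.3%). The authors' score, which rises with the reproducibility of a peak between the 2 samples, stood at its maximum of 1000 in 60.5% of members and 82.8% of distal regions.

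For BHLHE40 the median signal value was 13.1 (9.23 and 18.95) at members and 12.2 (8.18 and 19.8) at distal regions. The BHLHE40 region was wider at members, with a median of 1232.5 bp against 757 bp. H3K27ac had a median signal value of 7.69 (5.24 and 10.7) at members and 4.07 (3.23 and 5.65) at distal regions, and median widths of 928 and 547 bp. The GATA3 summit lay inside an H3K27ac line at 84.1% of members and 66.0% of distal regions. A wider line has more chance to hold a summit, and the part of width in this difference was not tested. The GATA3 signal value exceeded the BHLHE40 signal value at 35.2% of members and 67.1% of distal regions, though the lists have separate scales and only the difference between classes can be read.

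**Figure D1:**
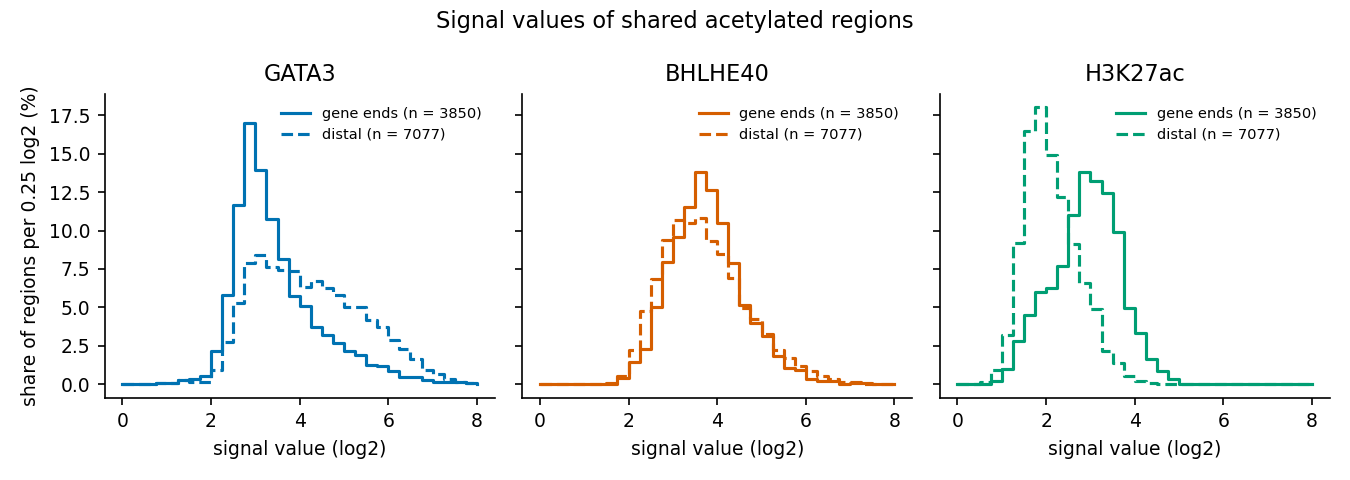
Share of regions (percent, vertical axes) by signal value on a log2 horizontal axis, for GATA3, BHLHE40 and H3K27ac, in the 3850 members and the 7077 distal regions. The member curve lies to the left of the distal curve for GATA3 (medians 9.32 and 16.9), over it for BHLHE40 and to the right for H3K27ac (7.69 and 4.07).

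The GATA3 signal value differed with distance from the gene end. Its median was 8.96 over the 3143 shared acetylated regions within 500 bp of an end and 11.4 over the other 707 members, up to 1000 bp. Outside the members it was 13.2 up to 2000 bp, 16.2 from there to 5000 bp, 16.8 from there to 20000 bp and 18.5 beyond. BHLHE40 medians stayed between 11.9 and 13.2 over the same 6 bins, and H3K27ac medians ran from 8.00 in the first to 4.02 in the last. Among members whose nearest end was the start of a gene, the GATA3 median was 8.86, against 14.4 where it was the other end. H3K27ac medians of those members were 8.32 and 4.41, and BHLHE40 medians 12.99 and 13.6. Members with starts on opposite strands within 1 kb had a GATA3 median of 8.38. It was 9.65 for all other members, among them those without a known start.

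Members near snRNA genes had the highest BHLHE40 median of the gene types with more than 20 members, 28.3 over 21 regions, with GATA3 at 12.4. The snRNA genes encode the RNA parts of the splicing machinery, and such genes occur in near-identical copies, so the assignment of reads to 1 copy is uncertain. Pseudogenes had a GATA3 median of 18.97 over 93 regions, and V segments 24.2 over 21.

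At gene ends, BHLHE40 regions that overlapped a GATA3 region were stronger and wider than those that did not. Their median BHLHE40 signal value was 12.97 (9.14 and 18.7) over 3813 regions, against 9.03 (6.77 and 12.4) over the 5154 BHLHE40-only regions, and the median widths were 1221 and 952 bp. A wider region has more chance to overlap another list, and the part of width in this difference was not tested. Across the members the GATA3 and BHLHE40 signal values had a Spearman rank correlation of 0.222 (n = 3850 regions from the same 2 lists), and across distal regions 0.409 (n = 7077). For GATA3 and H3K27ac the rank correlation was -0.14 and -0.02.

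The members were then divided into 5 quintiles of 770 by GATA3 signal value. GATA3 medians were 5.74, 7.41, 9.32, 13.2 and 29.4 from the lowest quintile to the highest, as the division sets them. BHLHE40 medians were 11.4, 12.4, 13.6, 14.1 and 15.3, with broadly overlapping quartiles. The highest quintile differed from the others in several ways that the division did not use. Its H3K27ac median was 6.17, against 7.93 to 8.26 in the others. Protein-coding genes were nearest for 58.8% of it, against 75.5 to 79.0%, and the start was the nearest end for 78.0%, against 92.0 to 95.3%. Starts on opposite strands were near 12.99% of it, against 20.9 to 27.5%. The shares for protein-coding genes and for opposite strands are of all 770 regions. The share with the start as nearest end is of the regions whose nearest gene had a known strand. Fewer regions of the highest quintile had a start in the promoter table within 1 kb (418, against 553 to 611), and the part of this in the difference was not tested. The median distance to the gene end was 256.5 bp in the highest quintile, against 124 to 149 bp.

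The summits of the factors lay further apart at gene ends than elsewhere. Between the GATA3 summit and the closest summit of an overlapping BHLHE40 region there was a median of 83 bp at members and 29 bp at distal regions. It was at most 50 bp for 37.1% (35.6 to 38.6) of members and 68.4% (67.3 to 69.4) of distal regions, and over 200 bp for 28.5% and 10.4%. The wider BHLHE40 regions at gene ends, given above, leave more room for distance, and their part in the difference was not tested. Within the members the median was 100 bp at gene starts and 36 bp at other ends. In the highest quintile of GATA3 signal value it was 49 bp, against 86 to 104 bp in the other quintiles.

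**Figure D2:**
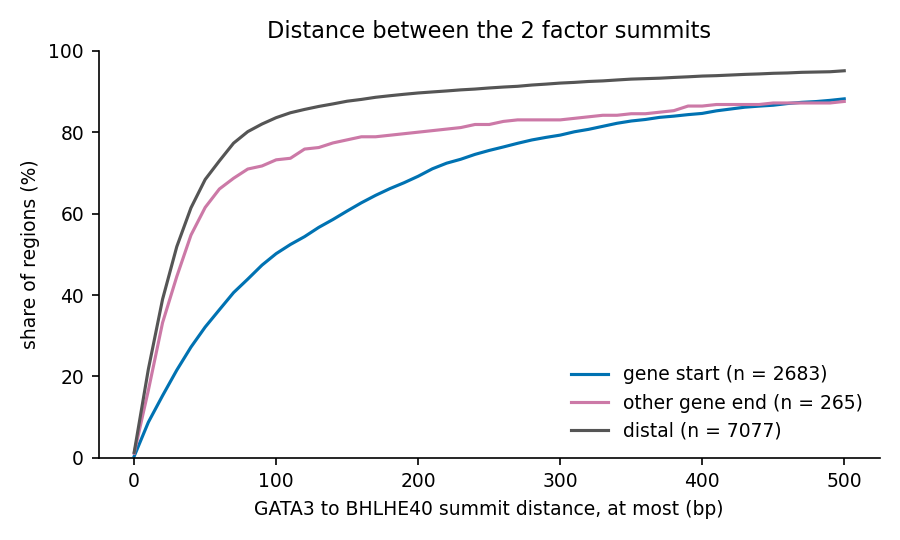
Cumulative share of regions (percent, vertical axis) by distance in bp between the GATA3 and BHLHE40 summits (horizontal axis), as lines for members at a gene start (2683), members at the other gene end (265) and distal regions (7077). Within 50 bp lie 32.1% of members at starts, 61.5% of members at other ends and 68.4% of distal regions.

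Placed on the strand of the gene, the 3 lists had their summits at different positions around the start. Over the 2792 members within 1 kb of a start in the promoter table, the median GATA3 summit lay 37 bp after the start (quartiles -141 and 108), and 41.6% lay before it. The fullest bin of 50 bp held 17.9% of GATA3 summits, from 50 to 100 bp after the start. The median BHLHE40 summit of the same members lay 56.5 bp before the start (-142 and 42), with 64.4% before it. Of the 2722 BHLHE40 summits within 1 kb, the fullest bin, from 100 to 50 bp before the start, held 15.03%. Taken member by member, the GATA3 summit lay a median of 32 bp downstream of the BHLHE40 summit (-49 and 149). BHLHE40-only regions had their median summit 43 bp before the start (3910 regions). The H3K27ac summits formed a hump on each side of the start. Of the 3425 such summits within 1 kb, 15.5% fell from 100 to 150 bp after the start, 4.79% from 250 to 200 bp before it and 0.847% in the 50 bp before it.

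**Figure D3:**
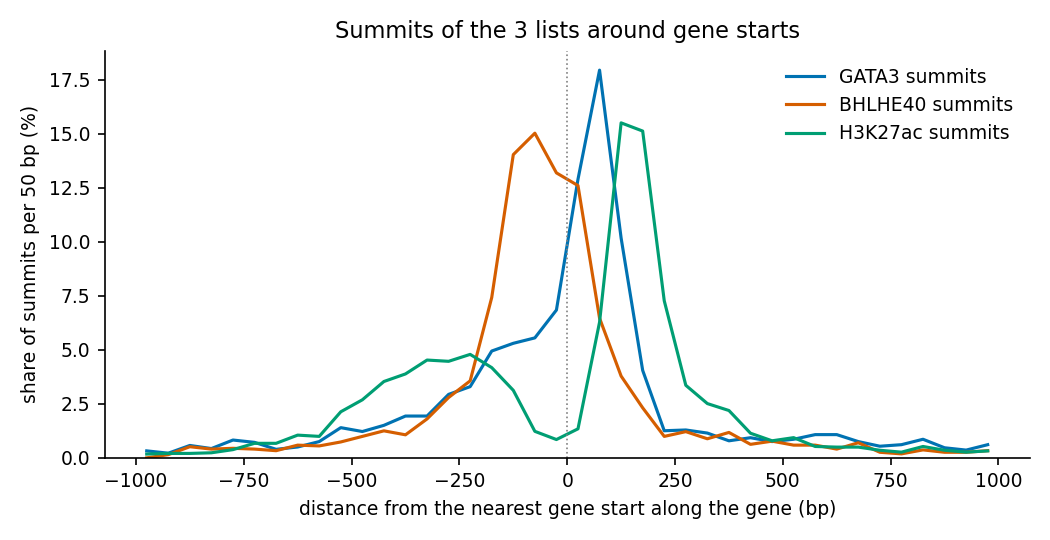
Share of summits (percent, vertical axis) in bins of 50 bp by distance from the gene start in bp (horizontal axis, negative before the start), for GATA3, BHLHE40 and H3K27ac at members. GATA3 is fullest just after the start, BHLHE40 just before it, and H3K27ac on both sides with 0.847% in the 50 bp before the start.

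The promoter windows gave the sequence around part of these summits. They end 50 bases after the start, so the fullest bin of GATA3 summits, 50 to 100 bp after it, lies beyond the window of that start. A window was counted for the members when it held a member's GATA3 summit (1262 windows) and for the BHLHE40-only class when it held such a region's BHLHE40 summit (2611). The classes were thus placed by summits of different factors. Only 1262 of the 3850 members had a window, and the motif shares leave out the rest. Each motif was searched on both strands in these and in all 35116 windows of the table, every one 300 bases long. The GATA core was present in 49.5% (46.8 to 52.3) of member windows, 29.3% (27.5 to 31.0) of BHLHE40-only windows and 49.7% of all windows. The longer form AGATAA, which contains the core, was present in 10.9% (9.26 to 12.7) of member windows, 2.11% (1.62 to 2.73) of BHLHE40-only windows and 10.3% of all windows. Member windows were thus near the background for both, and above the BHLHE40-only windows. The median GC content was 63.3% in member windows, 67.0% in BHLHE40-only windows and 58.7% in all, and its part in these shares was not tested.

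The E-box CACGTG was present in 12.2% (10.5 to 14.1) of member windows and 14.2% (12.9 to 15.6) of BHLHE40-only windows, intervals that overlap, against 7.26% of all windows. The general E-box CANNTG, which includes it, was present in 60.6%, 61.7% and 68.7%. The GC box GGGCGG stood in 64.8% of member windows, 77.1% of BHLHE40-only windows and 45.0% of all windows, and the CCAAT box in 32.6%, 38.0% and 34.6%. The RUNX motif TGTGGT was in 13.5%, 8.85% and 13.1%, and the AP-1 motif TGACTCA in 3.72%, 3.03% and 4.95%. The ETS core GGAA was in 96.8%, 96.6% and 95.5%. An E-box element spaced from a GATA core as in TAL1 complexes, searched as CTG, 8 bases of any kind and GATA, was in 1.74%, 1.07% and 1.98%, and with 1 more base between them in 1.58%, 0.996% and 1.87%.

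GATA motifs were most frequent in the member windows with the highest GATA3 signal. With the 1262 windows divided into quintiles by GATA3 signal value, the core was present in 43.5%, 40.1%, 46.0%, 48.0% and 70.0% (64.0 to 75.3) from the lowest to the highest. AGATAA was present in 6.72%, 5.16%, 8.73%, 9.92% and 23.7% (18.9 to 29.3). The E-box CACGTG had no such order, with 11.5%, 11.5%, 12.7%, 14.7% and 10.7%. Of the 50 windows with the highest GATA3 signal value, 46 held the core and 20 held AGATAA. The median GC content ran from 61.0% in the highest quintile to 65.2% in the middle one. Where a window held a core, the GATA3 summit lay a median of 43 bp from the nearest one, and 17 bp in the highest quintile. It lay within 25 bp for 35.5% of all such windows and for 58.2% in the highest quintile. These motif matches are descriptions of letters in the window and not of binding at them.

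**Figure D4:**
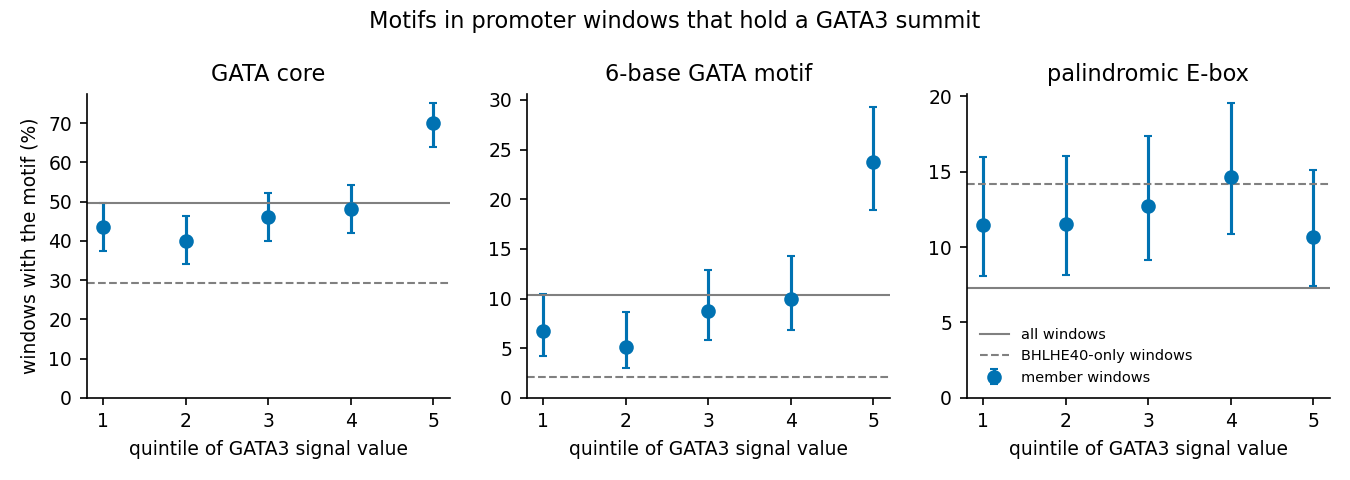
Share of promoter windows (percent, vertical axes) that hold the GATA core, the 6-base GATA motif and the palindromic E-box, as points for quintiles of GATA3 signal value among the 1262 member windows, with 95% Wilson intervals as error bars, and as horizontal lines for BHLHE40-only windows (dashed) and all windows (solid). The GATA core reaches 70.0% in the highest quintile, against 40.1 to 48.0% in the others, while the palindromic E-box shows no order.

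The 15 regions with the highest GATA3 signal value had BHLHE40 values of at least 20.5, above the members' upper quartile of 18.95. That bound does not hold further down the order, as the region ranked 18 had a BHLHE40 value of 10.3. Their H3K27ac values ran from 3.09 to 15.5, beyond the members' quartiles of 5.24 and 10.7 on both sides. The highest, inside the lncRNA LINC00858 at chr10:84293431-84294468, had a GATA3 signal value of 259, a BHLHE40 value of 95.6 and an H3K27ac value of 5.56, with the factor summits 5 bp apart. The regions at LOC105370399 (242 and 195 for GATA3 and BHLHE40), SDE2 (204 and 169) and LOC124901407 (201 and 226) were high for both factors. HTR5A had 239 and 50.5. LOC124902694, inside the record of the kinesin light chain gene KLC2, had 199 and 21.4. ARHGDIB had 185 and 33.0. LOC124906008, an lncRNA within SPTBN1, had 169 and 147. CYB5D1 and the lncRNA LOC124902787 each had a GATA3 value of 163. HCAR1, a lactate receptor gene, had 158. CD84, a receptor of the SLAM family on lymphocytes, had 150 for GATA3 and 168 for BHLHE40, with summits 10 bp apart. LOC101929698, PSAP (the lysosomal prosaposin gene) and LOC105373712 completed the 15 highest with 144, 138 and 133. Over these 15, factor summits lay 1 to 89 bp apart, against the members' median of 83 bp.

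Most of the 10 highest BHLHE40 values lay at regions that also had a high GATA3 value. LOC124901407 was highest at 226, and with LOC105370399, SDE2, CD84, LOC124906008, CABCOCO1 (149), SIGLEC28P (104) and RN7SKP192 (103) it also had a GATA3 value of at least 95.9. The factor summits at these regions were 1 to 32 bp apart. The other regions among the 10 highest had GATA3 values below the members' median of 9.32. USP3, a deubiquitinase gene, had a BHLHE40 value of 115 and a GATA3 value of 9.04, with summits 706 bp apart. DUSP2, a phosphatase gene induced by T-cell activation, had 103 and 8.72, with summits 2685 bp apart. The BHLHE40 region at DUSP2 was 8807 bp wide, and its summit lay outside the GATA3 region of 1340 bp.

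Ribosomal protein genes were the list with the largest share of members. Of 77 genes for proteins of the cytosolic ribosome, 72 (93.5%, 85.7 to 97.2) had a member at an end, against the background of 18.1%. A BHLHE40-only region lay at RPS13, RPS19, RPS21 and RPL30. The median GATA3 signal value over the 72 was 15.5 (10.1 and 26.9), against 9.32 over all members, and 59 of the 72 lay above the latter. The highest were RPL31 (65.0), RPS15 (64.4), RPS3A (47.6) and RPS7 (45.9). The BHLHE40 median was 14.5 and the H3K27ac median 8.22. For 57 the position against the start was known, and 51 of these (89.5%, 78.9 to 95.1) had the GATA3 summit after the start, at a median of 78 bp over the 57. Of 15 promoter windows, 9 held a GATA core (60.0%, 35.7 to 80.2), against 49.7% of all windows. Windows end 50 bases after the start, short of the median summit at 78 bp. AGATAA was in 1 (6.67%, 1.19 to 29.8) against 10.3%, and CACGTG in 3 (20.0%, 7.05 to 45.2) against 7.26%.

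Other broadly expressed families also stood above the background, which counts all protein-coding genes, with or without H3K27ac. Heat shock proteins and chaperonin subunits, which fold proteins, had a member at 16 of 26 genes, led by HSP90AA1 (41.0), CCT4 (24.1), CCT5 (22.6) and CCT7 (15.3), with a GATA3 median of 13.6. Proteasome subunits, which degrade proteins, had one at 21 of 34, led by PSMC6 (37.9) and PSMD8 (32.3), with a median of 8.83. SR and hnRNP proteins, which act in splicing, had one at 16 of 27, led by HNRNPH3 (29.6) and HNRNPA1 (22.1), with a median of 11.4. Replication-dependent histones, transcribed in S phase from clustered genes, had one at 35 of 62, led by H4C4 (73.0, other end of the gene). H2AC12 and H2BC12 shared a region with a GATA3 value of 36.4, so neighbouring histone genes are not separate observations.

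Signalling and T-cell lists held intermediate shares. In this paragraph and the next, a named region not marked as other end lay at a start or at a gene of unknown strand. NF-kB pathway genes had a member at 11 of 19: NFKB1, a subunit gene, had the highest GATA3 value (76.5, at the other end of the gene), followed by BIRC3 (50.2), an inhibitor of apoptosis, NFKBIB (25.3), an inhibitor of NF-kB, and REL (11.3). Proximal T-cell receptor signalling had 10 of 22, among them the phosphatase gene PTPN6 (46.0, other end), UBASH3A (21.4) and the adaptor gene SH2D1A (18.5, other end). A BHLHE40-only region lay at another 10 of these 22 genes. Genes of the TAL1 complex and its partners had 8 of 17, led by TAL1 (35.3), TCF12 (13.3), CBFB (12.3) and RUNX1 (10.3). The T-cell receptor and surface list had 7 of 19, led by PTPRC (21.9), which encodes CD45, CD2 (12.8, other end), CD247 (12.7) and CD28 (9.73). T-lineage transcription factors had 7 of 20 with values from 6.87 to 11.5, led by IKZF2, ZBTB7B (other end), BCL11B and ZBTB17. The intervals on the shares of the surface list (19.1 to 59.0%) and the T-lineage list (18.1 to 56.7%) began near the background.

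Of the stimulation, clock and G1 lists, only immediate-early and AP-1 genes had an interval above the background of 18.1% (45.5%, 29.8 to 62.0). The intervals for activation receptors (15.2 to 58.3%), cytokines (2.79 to 30.1%), clock genes (15.4 to 54.0%) and G1 genes (7.67 to 40.0%) include it. Immediate-early and AP-1 genes had a member at 15 of 33, led by BTG1 (16.4), MYC (12.9), FOS (12.002) and DUSP6 (11.97), and their BHLHE40 median was 19.5, against 13.1 over all members. Activation receptors and ligands had 5 of 15, led by SLAMF1 (29.8, other end), CD69 (17.6), TNFRSF9 (10.8, other end) and CD83 (9.49). Cytokines and chemokines had 2 of 20: IL2 (28.3, at the start) and IL5 (6.60). Clock genes had 6 of 19, led by PER1 (20.8, other end), CRY2 (11.2), CLOCK (10.7, other end) and CRY1 (7.90). They had the highest BHLHE40 median of the lists with more than 2 genes at a member, 30.6. The G1 cyclins, CDKs and inhibitors had 4 of 21, near the background: E2F3 (11.8), CCND3 (11.01), CDK6 (8.59) and RB1 (5.56).

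**Figure D5:**
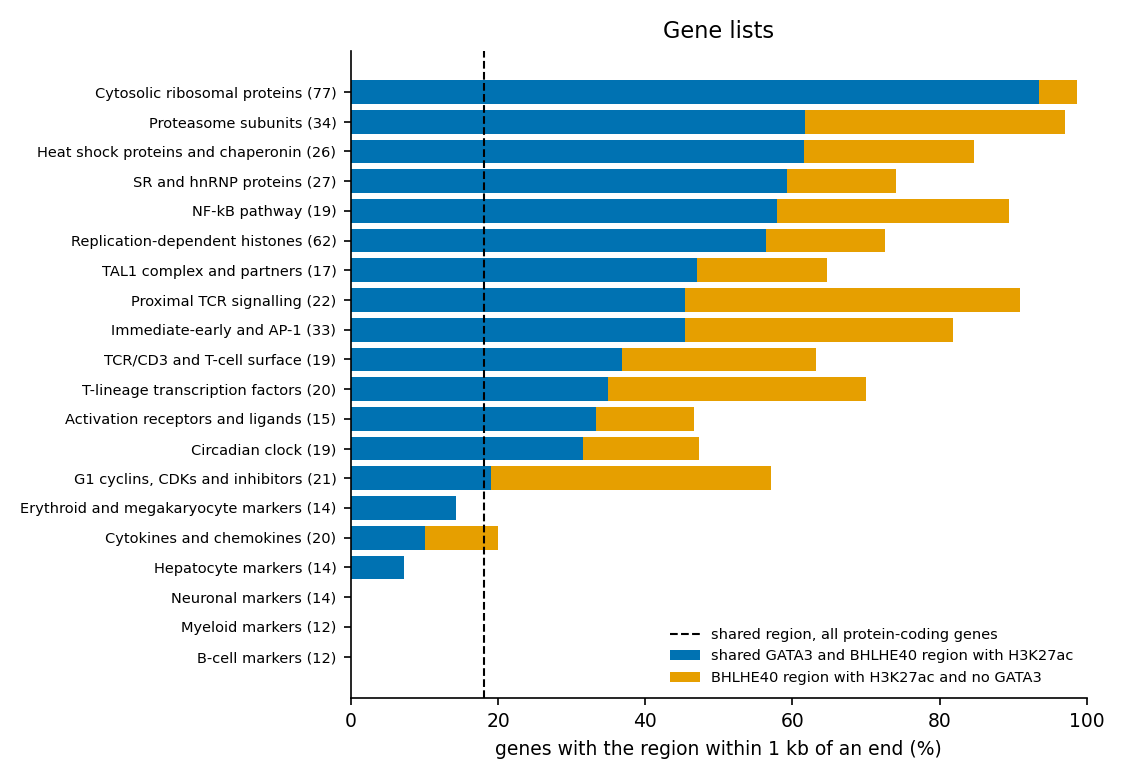
Share of genes (percent, horizontal axis) with a member at an end and with a BHLHE40-only region at an end, stacked for each gene list (vertical axis, number of genes in brackets), beside a dashed line for the background of 18.1% of protein-coding genes. Ribosomal protein genes reach 93.5%, and the B-cell, myeloid and neuronal lists have no member.

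The genes GATA3, BHLHE40, TAL1 and CD69 were looked up whatever their values. BHLHE40 had a member 708 bp from its own start, with GATA3 at 5.07, BHLHE40 at 38.5 and H3K27ac at 8.57, and summits 421 bp apart. TAL1, a leukaemia oncogene and partner of GATA3, had a member at chr1:47232215-47232743, 61 bp from the start, with GATA3 at 35.3, BHLHE40 at 27.6 and H3K27ac at 2.65, and summits 16 bp apart. CD69, an early activation receptor, had a member at chr12:9757585-9762108, 660 bp from a gene end, with 17.6, 34.4 and 3.40 and summits 712 bp apart. The GATA3 gene had no member at its ends. Its nearest shared region had a summit 3514 bp from an end, with GATA3 at 75.8 and BHLHE40 at 33.2.

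Antigen-receptor loci held 28 members by nearest segment, in the TRB, TRG, TRA and IGH records. TRBV27 had the highest GATA3 value (90.3, with BHLHE40 at 72.6), followed by TRBV13 (90.03 and 16.1) and IGHV7-4-1 (45.2 and 11.4). TRGV2, a T-cell receptor gamma segment, had 43.2 and 59.6. The lowest value was 3.19, at TRAV14DV4, whose other region reached 31.8. These segments and their named examples were chosen after their values were seen, and V segments have close copies, so reads may be shared between them. The lowest GATA3 signal value of all members, 1.33, was at the mitochondrial RNR2 gene.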

How the data were processed

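ChIP-seq of formaldehyde-fixed, sonicated chromatin was represented by 3 deposited peak lists, 1 for each group of 2 samples, which were grouped by title. The build was hg38 and the tools MACS2 and bcl2fastq 2.20, per the submitters' processing notes; the aligner, filters and use of input controls are not given in the sources used here. The authors' factor lists keep peaks at an irreproducible discovery rate (IDR) of 0.05, per the list names, and the H3K27ac list is pooled. The deposited values used were the score (540 to 1000 for GATA3), the signal value (a measure of enrichment whose reference is not stated), the −log10 q-value and the summit offset. They were compared between regions of the same list, except in the rank correlations and in the share of regions whose GATA3 value exceeded the BHLHE40 value.

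Overlaps, distances, medians, Wilson intervals (95%) and motif counts were computed with Python 3.11.15, pandas 2.3.3, numpy 2.4.6 and scipy 1.17.1, and figures with matplotlib 3.10.9. The functions were checked on simulated data. Where several lines overlapped, the one sharing most bases gave the value. Coordinates are 1-based. Gene ends came from RefSeq GRCh38.p14. Starts and strands came from its promoter table, which held 27305 protein-coding and lncRNA genes. Overlap and distances were not tested, since each group is 1 list.

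The members and gene lists were chosen with earlier results of these data known. Named genes were the 15 highest members by GATA3 and 10 by BHLHE40 signal value, up to 4 of each list by GATA3 signal value, the 2 regions on each side of the 1 kb limit, and GATA3, BHLHE40, TAL1 and CD69. Alternatives varied the distance, the gene types, the score and the H3K27ac threshold. No distal sequence was analysed here. Some genes of the lists are not reported here.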

Additional observations from a re-analysis of the deposited data

How the results depend on the processing

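Across 19 results and 100 alternative values, 80 stayed within the interval of the reported share or within 1.5 times the reported value, 19 moved further and 1 changed direction. With an H3K27ac −log10 q-value of at least 5, the ratio of BHLHE40 medians at gene ends to distal regions was 0.983 in place of 1.07. The share of shared acetylated regions at gene ends was 28.8% for summits within 500 bp, 41.5% within 2 kb, 28.5% for protein-coding records only, 31.7% with a score of at least 830 in both factor lists (an IDR of 0.01) and 42.2% with the H3K27ac threshold. Protein-coding genes with a member were then 14.8% (500 bp), 20.6% (2 kb), 12.2% (score) and 17.6% (H3K27ac). The nearest end was the start for 93.9% (500 bp), 87.5% (2 kb), 93.9% (protein-coding), 89.5% (score) and 93.0% (H3K27ac). Starts on opposite strands were near 20.6% (500 bp), 13.8% (protein-coding) and 21.7% (score) of members. With the score threshold the GATA core was in 54.2% and AGATAA in 12.8% of member windows. These alternatives change the regions counted.

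No paired analysis was possible because the deposited lists merge the samples of a group. Leaving out each replicate was not run for the same reason. Depth is unknown, and a gene end without a listed region is not shown to be unbound. Signal values of different lists have no common scale.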
